A study of Homo sapiens with 12 samples.

Results

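The double mutant line of OCI-Ly7 was set against its wild-type parent across all genes with enough counts. Of the 12 samples in the series, 6 belong to this comparison, 3 double mutant and 3 wild-type libraries, and 11 have a column of counts. OCI-Ly7 grows from malignant human B cells of a diffuse large B-cell lymphoma. The double mutant has lost KMT2D (labelled kmt2d-/-) and carries EZH2 Y646N, a substitution in the enzyme's catalytic domain, while the wild-type libraries carry the label WT. Single mutants were used for side comparisons, with 2 libraries of the line that has EZH2 Y646N alone and 3 libraries of the line that has lost KMT2D alone. All lines were untreated. The labels name 1 cell line per genotype and do not say whether it is a clone or a pool, or whether replicates were separate cultures, so p-values here reflect the spread among libraries, which may be technical.

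EZH2 is the catalytic subunit of Polycomb repressive complex 2, which places methyl groups on lysine 27 of histone H3 and so keeps genes silent. Substitutions of that tyrosine raise trimethylation of that lysine and are common in germinal centre B-cell lymphomas. KMT2D methylates lysine 4 of histone H3 at enhancers, which favours transcription, and its loss is also frequent in these lymphomas. Germinal centre B cells multiply and mutate their antibody genes under the control of the repressor BCL6 before they leave as memory or plasma cells.

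Counts came from the 3′ ends of transcripts. Totals were 2165911, 1418465 and 1705894 in the double mutant libraries and 1748860, 2801302 and 2460277 in the wild-type libraries, so the double mutant was sequenced less deeply on the whole. Of 28278 genes in the table, 8813 were tested. Neither targeted gene differed past the threshold, KMT2D at log2 0.46 (adjusted p = 0.235) and EZH2 at log2 0.17 (adjusted p = 0.424), and counts of 3′ ends check neither lesion. The summed B-cell markers stood at 8970 ± 380 CPM of the library total in the double mutant and 9080 ± 1330 in wild type (SD, n = 3 each, exact permutation p = 1.0). Markers of T and NK cells summed to 289 ± 8.96 CPM in the double mutant and 343 ± 43.7 in wild type, with 17 of 23 at 0 in every double mutant library and 14 of 23 at 0 in every wild-type library (exact permutation p = 0.2). LCK alone made up most of that sum in both lines, at 170 to 199 CPM in the double mutant and 213 to 270 in wild type. Myeloid markers summed to 7.90 ± 0.873 CPM in the double mutant and 31.3 ± 8.66 in wild type (p = 0.1, the smallest that the exact permutation test allows with 3 libraries a group). AIF1 alone had 16 counts in the double mutant and 189 in wild type, where it made up most of that sum. The myeloid marker CD14 did not fall with it, at 6 counts in the double mutant and 2 in wild type. The T-cell marker CD3E had 2 and 1 counts in the same order, and the epithelial marker EPCAM 2 and 0. CD3D, CD3G, CD8A, CSF1R, LYZ, COL1A1 and VWF, which define T cells, macrophages, fibroblasts and endothelium, were at 0 in all 6 libraries. In bulk RNA, fewer cells of a kind and less RNA per cell cannot be told apart.

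The double mutant differed widely from wild type, with many chaperone, ribosome biogenesis and glycolysis genes higher and many germinal centre and sterol synthesis genes lower. Of the 8813 genes, 2087 passed edgeR's quasi-likelihood test at an adjusted p under 0.05 (23.7%), 1068 higher (12.1%) and 1019 lower (11.6%). Among changes of at least 2-fold the falls outnumbered the rises, with 152 genes higher (1.72%) and 614 lower (6.97%). With tested genes ranked by mean expression and cut into 3 classes of equal size, the lowest class held 415 of those falls and 62 of those rises. The highest class held 42 falls and 47 rises of that size, and 703 of their 2938 genes were higher at any size against 243 lower. Without double mutant replicate 1, the deepest double mutant library, 1374 genes passed, 681 higher and 693 lower. The split also depended on the scaling. Upper-quartile factors put the median gene at log2 -0.13, beside -0.014 in the main test, and gave 728 higher and 1318 lower. Removing trends with GC content and abundance from each library gave 666 higher and 1285 lower.

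**Figure D1:**
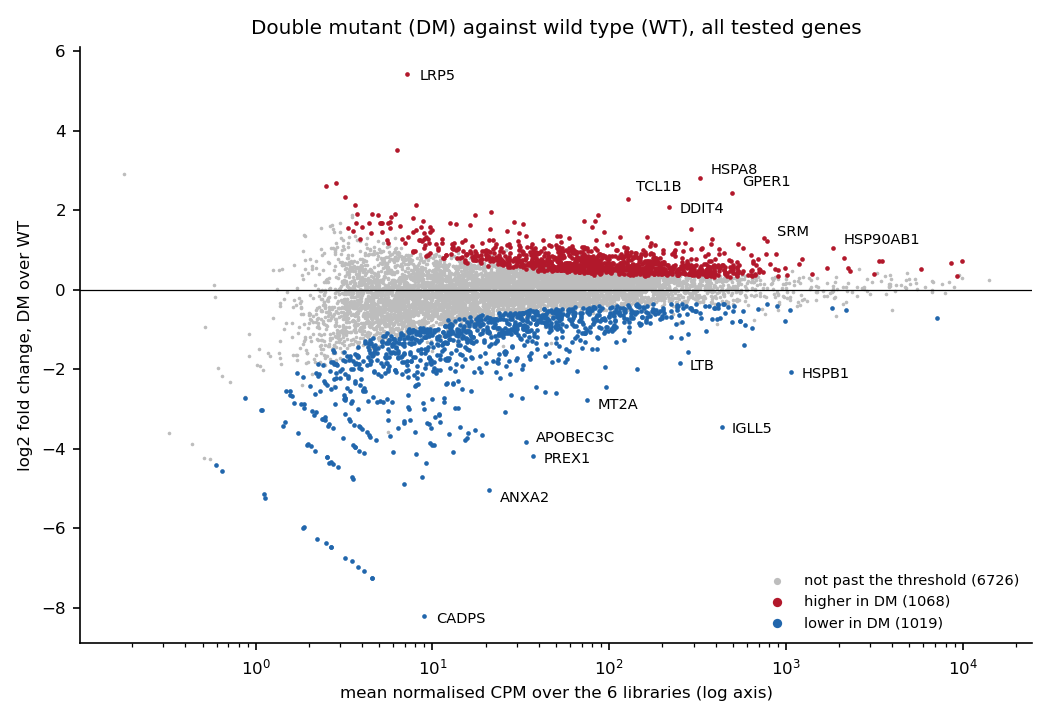
Each point is one of 8813 tested genes, placed by its mean normalised CPM, counts scaled to library size, over the 6 libraries (horizontal log axis) and its log2 fold change, double mutant over wild type (vertical axis). Red points were higher, blue points lower and grey points not past the threshold. Large falls lie mostly at low expression, and most of the red points lie at high expression.

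The largest falls joined membrane, signalling and cytoskeletal genes. Expression is given as CPM (counts scaled to library size by TMM factors) in each library, and fold changes as log2 of double mutant over wild type with the standard error (SE). HVCN1, the voltage-gated proton channel of B cells, had 3.45, 1.51 and 1.74 CPM in the double mutant, against 23.8, 26.9 and 28.4 CPM in wild type (log2 -3.46, SE 0.30, adjusted p = 1.94e-07). NINJ1, a membrane protein of plasma membrane rupture in dying cells, had 2.96, 2.27 and 2.91 CPM in the double mutant, against 37.3, 30.9 and 37.6 CPM in wild type (log2 -3.64, SE 0.32, adjusted p = 2.20e-07). In both genes the lowest wild-type library was several times the highest double mutant library.

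DLL3, an inhibitory ligand of the Notch pathway, had 0, 3.02 and 1.16 CPM in the double mutant, against 19.2, 15.6 and 21.9 CPM in wild type (log2 -3.91, SE 0.50, adjusted p = 1.90e-05). CDK18, a cyclin-dependent kinase, had 2.47, 1.51 and 2.91 CPM in the double mutant, against 31.7, 26.2 and 30.7 CPM in wild type (log2 -3.60, SE 0.42, adjusted p = 8.89e-06). FOXN4, a forkhead transcription factor, had 1.97, 0.755 and 2.91 CPM in the double mutant, against 18.7, 19.4 and 22.6 CPM in wild type (log2 -3.33, SE 0.35, adjusted p = 2.09e-06). The groups did not overlap for any of the 3. CARD10, a scaffold that links receptors to BCL10 and NF-kB, had 2.47, 3.02 and 0.581 CPM in the double mutant, against 17.5, 20.1 and 18.4 CPM in wild type (log2 -3.21, SE 0.37, adjusted p = 6.56e-06), and MYH11, the smooth muscle myosin heavy chain, fell at log2 -3.74. TCEAL4, of an X-linked family of small transcription elongation factor A-like genes, had 1.48, 3.78 and 1.16 CPM in the double mutant, against 27.7, 30.6 and 26.4 CPM in wild type (log2 -3.79, SE 0.33, adjusted p = 1.72e-07). The falls of ANXA2 (log2 -5.04), PREX1 (log2 -4.19), ACSS2 (log2 -4.08) and APOBEC3C (log2 -3.84) belong to the same group of largest changes and are described with their lists. PTPRVP (log2 -3.52) and TBC1D27P (log2 -3.64) are pseudogenes whose reads may belong to related genes, so their counts are uncertain, as are those of IGLL5, a lambda-like gene near the immunoglobulin lambda constant genes.

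At higher expression IGLL5 had 63.7, 99.7 and 56.4 CPM in the double mutant, against 898, 726 and 752 CPM in wild type (log2 -3.45, SE 0.18, adjusted p = 2.50e-10). MDS2 had 56.8, 66.5 and 50 CPM in the double mutant, against 208, 267 and 214 CPM in wild type (log2 -2.00, SE 0.14, adjusted p = 1.02e-08). FBP1, the gluconeogenic enzyme fructose bisphosphatase, had 138, 163 and 125 CPM in the double mutant, against 442, 423 and 392 CPM in wild type (log2 -1.57, SE 0.12, adjusted p = 4.67e-08). All 3 double mutant libraries lay below all 3 wild-type libraries in each gene. VPREB1, a surrogate light chain gene of early B cells, was also lower, with 3 counts in the double mutant against 41 in wild type (9.46-fold lower, 95% interval 3.02 to 47.7), while its relative VPREB3 did not differ past the threshold, at 1561 ± 87.2 CPM in the double mutant and 1487 ± 174 CPM in wild type (SD, n = 3 each, log2 0.07, SE 0.12, adjusted p = 0.73).

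A set of genes fell nearly to silence. Taking called genes with 3 or fewer counts summed over the libraries of one line and 30 or more in the other, 48 were near silent in the double mutant (0.545% of tested genes) and 1 in wild type (0.0113%). Such genes passed the count filter only through libraries in which they were higher. The double mutant was also sequenced less deeply, so a limit of 3 counts is easier to meet there. The part of depth and filter in the 48 and the 1 was not tested. When the double mutant was set against the single mutants, 46 of the 48 were called against the KMT2D mutant. Against the EZH2 mutant, which has 2 libraries, 12 of the 48 were called. Over all tested genes 20.8% were lower than in the KMT2D mutant and 1.58% lower than in the EZH2 mutant. The 48 were chosen by low counts in the same double mutant libraries, so these counts are descriptions and give no separate support. Of the 48, 11 had no count in any double mutant library. A total of 46 kept their call in every alternative run that gave them an adjusted p. Genes this low can fall below the stricter filter, and a run that did not test a gene was not counted as a loss. CADPS, which primes secretory vesicles for calcium-triggered release, had 0 counts in the double mutant against 131 in wild type (at least 30.2-fold lower), scaled for depth with 3 counts over the group in place of 0. PLEKHB1 had 0 counts in the double mutant against 67 in wild type (at least 15.5-fold lower). LACTB2, a mitochondrial endoribonuclease, had 0 counts in the double mutant against 67 in wild type (at least 15.5-fold lower). None of these had a read in the double mutant, whereas each wild-type library had counts of all 3.

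SH2D2A, an adapter of T-cell signalling, had 0 counts in the double mutant against 58 in wild type (at least 13.4-fold lower). TCF7, a transcription factor of T cells and the Wnt pathway, had 0 counts in the double mutant against 49 in wild type (at least 11.3-fold lower). The transcription factor gene TFCP2 had 0 counts in the double mutant against 55 in wild type (at least 12.7-fold lower). None of these 3 genes had a read in the double mutant. The EZH2 mutant libraries were also low for TCF7, at 0 and 2 counts, but had 14 and 24 counts of SH2D2A and 2 and 16 of TFCP2. SPINK2, a serine protease inhibitor, had 2 counts in the double mutant against 98 in wild type (33.9-fold lower, 95% interval 9.14 to 284). PRKCA, protein kinase C alpha, had 1 count in the double mutant against 49 in wild type (33.9-fold lower, 95% interval 5.81 to 1370). The orphan receptor GPRC5C had 3 counts in the double mutant against 123 in wild type (28.4-fold lower, 95% interval 9.49 to 139), the vitamin D receptor VDR had 1 count in the double mutant against 41 in wild type (28.4-fold lower, 95% interval 4.82 to 1150) and the Src-family kinase FGR had 1 count in the double mutant against 34 in wild type (23.5-fold lower, 95% interval 3.95 to 956). Some of these genes are used by T, NK or myeloid cells, whose summed markers are given above; their part in these falls was not tested. The reverse case was LRP5, a coreceptor for Wnt ligands, with 17.3, 13.6 and 11.6 CPM in the double mutant, against 0, 0 and 0.767 CPM in wild type (adjusted p = 9.79e-06). Summed over libraries LRP5 had 73 counts in the double mutant against 2 in wild type (52.7-fold higher, 95% interval 14.1 to 444), and it had no count in either EZH2 mutant library. These genes were named after their values were seen, and intervals and floors cover counting error only.

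Fewer genes rose as far, and they were of mixed roles. LRRC32, the surface protein GARP that docks latent TGF-beta, had 138, 128 and 117 CPM in the double mutant, against 45.3, 36.7 and 35.3 CPM in wild type (log2 1.72, SE 0.15, adjusted p = 1.81e-07). QTRT1, the catalytic subunit of the enzyme that places queuosine in transfer RNA, had 127, 120.1 and 83.7 CPM in the double mutant, against 36.2, 30.3 and 34.1 CPM in wild type (log2 1.73, SE 0.18, adjusted p = 2.68e-06). CDKN1A, the cell cycle inhibitor p21, had 44.4, 49.1 and 39.5 CPM in the double mutant, against 14.1, 13.9 and 12.7 CPM in wild type (log2 1.70, SE 0.20, adjusted p = 6.98e-06). In each of the 3 the lowest double mutant library exceeded the highest wild-type library by more than 2-fold.

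RAB3A, a small GTPase of regulated secretion, had 26.6, 26.4 and 28.5 CPM in the double mutant, against 10.8, 8.5 and 3.45 CPM in wild type (log2 1.88, SE 0.31, adjusted p = 0.000311), with wild type replicate 3 well below its fellows. ESPNL, an espin-like actin-bundling gene, had 50.8, 49.9 and 48.2 CPM in the double mutant, against 16.4, 15.3 and 15.3 CPM in wild type (log2 1.66, SE 0.20, adjusted p = 1.02e-05). SNHG3, a host gene of small nucleolar RNAs, had 19.7, 19.6 and 18.6 CPM in the double mutant, against 5.66, 7.14 and 4.98 CPM in wild type (log2 1.68, SE 0.27, adjusted p = 0.00019). FCER2, the low-affinity IgE receptor CD23 of naive B cells, had 24.2, 28.7 and 21.5 CPM in the double mutant, against 9.05, 5.78 and 9.2 CPM in wild type (log2 1.64, SE 0.26, adjusted p = 0.000188). APOL2 had 20.7, 27.2 and 14.5 CPM in the double mutant, against 3.4, 7.14 and 8.05 CPM in wild type (log2 1.66, SE 0.32, adjusted p = 0.000973). The groups were apart in all 5 of these genes. GPER1, TCL1B, DDIT4, NME4, HSPA8, ANKRD37 and MX1 completed the 15 largest rises.

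**Figure D2:**
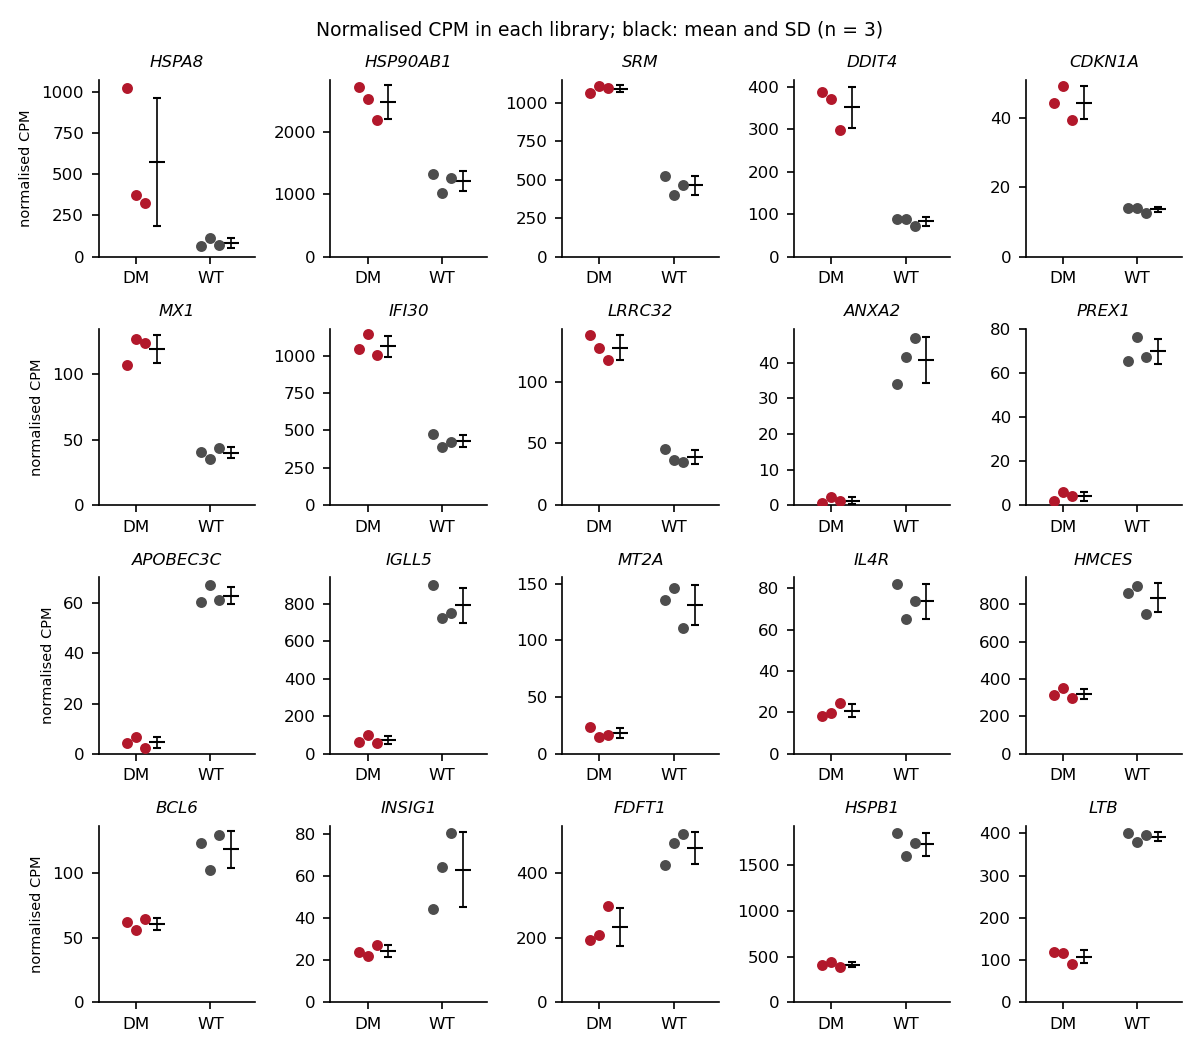
Normalised CPM (vertical axes, from 0) in each double mutant (DM, left, red) and wild-type (WT, right, grey) library for 20 genes discussed in the text, with mean and SD in black (n = 3 each). The groups are apart in every panel, and the HSPA8 values of the double mutant are the most scattered, with replicate 1 far above the other two.

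Chaperone genes that moved rose, apart from the small heat shock protein gene. Heat shock proteins hold other proteins in a foldable state and are switched on by the factor HSF1 through heat shock elements in promoters. Of 34 tested genes of the heat shock list, 15 were higher, 1 was lower and 18 did not pass, with a median log2 of 0.46 beside -0.014 over all tested genes. HSPA8, the constitutive HSP70, had 1023, 375 and 325 CPM in the double mutant, against 63.4, 114 and 67.1 CPM in wild type (log2 2.81, SE 0.59, adjusted p = 0.0132), a call lost without wild type replicate 3 (adjusted p = 0.0551), and its counts are uncertain because of processed pseudogenes. DNAJA1, an HSP40 cochaperone of HSP70, had 94.2, 111 and 149.9 CPM in the double mutant, against 35.6, 57.8 and 54 CPM in wild type (log2 1.25, SE 0.22, adjusted p = 0.000904). Both promoters hold a heat shock element, searched as GAANNTTCNNGAA or its reverse complement TTCNNGAANNTTC (N is any base), and are shown for that reason with the match in capitals.
HSPA8: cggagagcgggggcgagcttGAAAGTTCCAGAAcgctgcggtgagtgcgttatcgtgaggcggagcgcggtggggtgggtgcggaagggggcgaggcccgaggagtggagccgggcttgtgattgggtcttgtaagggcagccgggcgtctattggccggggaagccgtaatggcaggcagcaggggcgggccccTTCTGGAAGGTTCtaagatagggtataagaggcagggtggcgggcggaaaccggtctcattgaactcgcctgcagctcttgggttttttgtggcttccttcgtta
DNAJA1: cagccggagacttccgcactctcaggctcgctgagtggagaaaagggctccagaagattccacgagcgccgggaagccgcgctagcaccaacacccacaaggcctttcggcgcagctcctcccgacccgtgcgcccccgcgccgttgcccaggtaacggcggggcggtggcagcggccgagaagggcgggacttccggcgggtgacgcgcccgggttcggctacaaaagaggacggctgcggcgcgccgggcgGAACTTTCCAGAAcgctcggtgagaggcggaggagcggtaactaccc
They are RefSeq promoters of GRCh38.p14, from 250 bases before to 50 after the start, at chr11:123062087-123062386 on the minus strand for HSPA8, which holds the element in both orientations, and at chr9:33025023-33025322 on the plus strand for DNAJA1. The element was in 4 of 35 matched promoters of the list (11.4%) and in 172 of 35116 promoters in all (0.49%). Of the 3 tested genes that hold it 2 were higher, and of 27 tested genes without it 12 were higher and 1 lower. A match is a description of these bases and not a binding site.

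HSP90AB1, the constitutive HSP90, had 2727, 2534 and 2197 CPM in the double mutant, against 1333, 1027 and 1266 CPM in wild type (log2 1.04, SE 0.13, adjusted p = 1.43e-05). Its activator AHSA1 had 491, 426 and 406 CPM in the double mutant, against 227, 208 and 218 CPM in wild type (log2 1.02, SE 0.12, adjusted p = 6.97e-06). STIP1, which joins HSP70 to HSP90, had 336, 422 and 362 CPM in the double mutant, against 203, 131 and 160.2 CPM in wild type (log2 1.19, SE 0.20, adjusted p = 0.000837). The groups were apart in these 3 genes and in DNAJB1 (log2 1.00), an inducible HSP40, HSPA1B (log2 1.58), an inducible HSP70 with a near-identical copy, and HSPBP1 (log2 1.10), a nucleotide exchange factor of HSP70. The ring chaperonin of the cytosol took part with CCT7 (log2 0.86) and CCT3 (log2 0.72), and that of mitochondria with HSPD1 (log2 0.56). HSPB1, the small heat shock protein HSP27, went the other way, with 408, 441 and 387 CPM in the double mutant, against 1846, 1596 and 1732 CPM in wild type (log2 -2.07, SE 0.12, adjusted p = 9.75e-10), and related sequences make its counts uncertain.

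Ribosome biogenesis genes made up the list with the greatest share of rises among the lists plotted by share. MYC drives growth by binding E-boxes, among them CACGTG, at genes of ribosome production, nucleotide synthesis and metabolism. Of the 49 tested genes on this list (MYC targets and ribosome biogenesis), 26 were higher, 0 were lower and 23 did not pass, with a median log2 of 0.52. SRM, spermidine synthase, had 1064, 1107 and 1098 CPM in the double mutant, against 523, 401 and 466 CPM in wild type (log2 1.24, SE 0.13, adjusted p = 2.46e-06). NOP14, of the small-subunit processome, had 111, 105 and 96.5 CPM in the double mutant, against 58.3, 52.4 and 47.9 CPM in wild type (log2 0.98, SE 0.14, adjusted p = 6.38e-05). Every double mutant library exceeded every wild-type library in both, and their promoters, which hold CACGTG (its own reverse complement, in capitals), are shown as examples.
SRM: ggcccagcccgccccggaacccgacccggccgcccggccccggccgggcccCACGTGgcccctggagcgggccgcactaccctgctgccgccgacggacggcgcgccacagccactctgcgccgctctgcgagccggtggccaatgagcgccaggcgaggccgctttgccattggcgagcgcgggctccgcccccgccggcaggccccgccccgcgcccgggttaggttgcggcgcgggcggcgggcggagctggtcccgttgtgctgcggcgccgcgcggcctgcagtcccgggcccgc
NOP14: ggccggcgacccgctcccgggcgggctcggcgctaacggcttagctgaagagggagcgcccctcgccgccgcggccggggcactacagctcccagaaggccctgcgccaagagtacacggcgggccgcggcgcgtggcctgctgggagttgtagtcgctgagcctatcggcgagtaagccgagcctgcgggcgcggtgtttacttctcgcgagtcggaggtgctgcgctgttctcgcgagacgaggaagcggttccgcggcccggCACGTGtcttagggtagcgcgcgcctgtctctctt
Both lie on the minus strand of GRCh38.p14 (RefSeq), at chr1:11059969-11060268 for SRM and chr4:2963357-2963656 for NOP14. CACGTG was in 17 of 45 matched promoters of this list (37.8%) and in 2548 of 35116 promoters (7.26%). All 17 genes with it were tested and 13 were higher and 0 lower, while of 24 tested genes without it 10 were higher and 0 lower. MYC itself had too few reads to test, with 0 counts in the double mutant and 2 in wild type. Why it was so low in the deposited counts was not tested, so its expression is not judged from them.

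Other steps of ribosome production moved with them. MYBBP1A, a nucleolar MYB-binding protein, had 116, 124 and 95.3 CPM in the double mutant, against 56, 61.5 and 45.2 CPM in wild type (log2 1.04, SE 0.15, adjusted p = 9.55e-05). POLR1B, the second largest subunit of RNA polymerase I, had 11.8, 15.1 and 12.2 CPM in the double mutant, against 4.53, 4.76 and 4.98 CPM in wild type (log2 1.42, SE 0.31, adjusted p = 0.00277). PES1 (log2 0.92) and BOP1 (log2 0.80), both of the complex that matures the large subunit, and NOP2 (log2 0.85), a ribosomal RNA methyltransferase, were higher. So were RRP9 (log2 1.06), EBNA1BP2 (log2 0.82), NHP2 (log2 0.73) and RRP12 (log2 0.78), which act in nucleolar processing or export. The prohibitin PHB had 761, 746 and 699 CPM in the double mutant, against 359.8, 304 and 339 CPM in wild type (log2 1.14, SE 0.11, adjusted p = 1.58e-06). NME1, a nucleoside diphosphate kinase that shares sequence with NME2, had 476, 469.8 and 412 CPM in the double mutant, against 244, 193 and 221 CPM in wild type (log2 1.05, SE 0.12, adjusted p = 6.64e-06). With wild type replicate 1 left out, 1 of the biogenesis genes was lower. Of 77 tested genes of the cytosolic ribosomal proteins themselves, 6 were higher, 2 were lower and 69 did not pass (median log2 0.14), while 6 were higher and 6 lower with GC and abundance trends removed (median log2 -0.058) and 4 higher and 6 lower with upper-quartile factors. The members that passed included RPS2 at 12240 ± 1080 CPM in the double mutant and 7467 ± 894 CPM in wild type (SD, n = 3 each, log2 0.71, SE 0.12, adjusted p = 0.000325) and RPL15 (log2 -0.67) and RPL37 (log2 -0.68) lower. On dropping double mutant replicate 1 or 2 or wild type replicate 2, 3 of the ribosomal protein genes were higher. The ribosomal protein genes held 10 higher without double mutant replicate 3. Ribosomal proteins have many pseudogenes, so their counts are uncertain.

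Many nuclear genes of mitochondria rose modestly. Of 67 tested genes of the mitochondrial ribosome, which translates the few proteins coded in mitochondrial DNA, 29 were higher, 1 was lower and 37 did not pass (median log2 0.38). MRPL12 had 829, 810.4 and 665 CPM in the double mutant, against 436, 328 and 342 CPM in wild type (log2 1.06, SE 0.15, adjusted p = 4.56e-05). MRPL11 had 292, 301 and 198 CPM in the double mutant, against 151, 118 and 144 CPM in wild type (log2 0.94, SE 0.15, adjusted p = 0.000194). MRPS12 (log2 0.67), MRPS7 (log2 0.59) and MRPL21 (log2 0.67) were also higher, and MRPS21 was the one member lower, with 169.8, 189.6 and 158 CPM in the double mutant, against 278, 275 and 270.3 CPM in wild type (log2 -0.67, SE 0.11, adjusted p = 0.000445). A total of 15 of the mitochondrial ribosome genes were higher without double mutant replicate 1 or 2. Leaving out wild type replicate 2 or 3 gave 17 higher among the mitochondrial ribosome genes. Among the mitochondrial ribosome genes, 2 were lower without double mutant replicate 1 or 3 or wild type replicate 2. With GC and abundance trends removed, 11 were higher and 4 lower, and upper-quartile factors gave 14 higher and 2 lower.

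Of 65 tested nuclear genes of oxidative phosphorylation 24 were higher, 0 were lower and 41 did not pass (median log2 0.32), with 8 higher and 1 lower once GC and abundance trends were removed. ATP5MC1, a subunit of the rotating ring of ATP synthase, had 568, 557 and 504 CPM in the double mutant, against 204, 240.1 and 226 CPM in wild type (log2 1.28, SE 0.14, adjusted p = 2.77e-06). NDUFS8 (log2 0.67) and NDUFA3 (log2 0.61), both of complex I, were higher too. Expression of genes from the mitochondrial genome was not analysed here.

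Nucleotide, polyamine and translation factor lists held smaller groups of rises. Of 26 tested genes of nucleotide synthesis and nucleoside diphosphate kinases, 7 were higher, 1 was lower and 18 did not pass. PAICS (log2 0.52), PFAS (log2 0.65) and ADSL (log2 0.47), which act in purine synthesis, were higher, and MTHFD2, a mitochondrial folate enzyme, was lower (log2 -0.75), a call lost without double mutant replicate 1 (adjusted p = 0.0747) or wild type replicate 3 (0.0682). The nucleotide list held 5 higher and 3 lower with GC and abundance trends removed. With double mutant replicate 1 or wild type replicate 3 left out, 0 of the nucleotide genes were lower. On dropping wild type replicate 1, 2 of the nucleotide genes were lower. Of 14 polyamine genes 5 were higher and 2 lower, but 2 were higher and 4 lower with GC and abundance trends removed: beside SRM, ODC1, the first enzyme of the pathway, had 608, 488 and 492 CPM in the double mutant, against 356, 368 and 316 CPM in wild type (log2 0.61, SE 0.14, adjusted p = 0.00497; a call lost with GC and abundance trends removed (adjusted p = 0.172)). SAT1, which acetylates polyamines for breakdown or export, had 35.5, 27.9 and 25 CPM in the double mutant, against 78.1, 85.3 and 88.6 CPM in wild type (log2 -1.50, SE 0.16, adjusted p = 2.09e-06), and the arginase gene ARG2 was lower, with 2 counts in the double mutant against 50 in wild type (17.3-fold lower, 95% interval 4.55 to 147). So a synthetic enzyme was higher and a catabolic enzyme lower, with groups apart in each. Of 39 translation factors 9 were higher, 1 was lower and 29 did not pass, led by EIF2B3 (log2 1.01) and EIF5A (log2 0.78), with 4 higher and 3 lower once GC and abundance trends were removed and 8 higher and 3 lower with upper-quartile factors. The translation factors held 0 lower without double mutant replicate 3.

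Genes of sugar use that moved rose, with 2 exceptions at the entry and exit of the pathway. Glycolysis turns glucose to pyruvate, and hypoxia-inducible factors raise many of its genes. Of 35 tested genes of glycolysis and hypoxia, 16 were higher, 2 were lower and 17 did not pass (median log2 0.47). SLC2A1, the glucose transporter GLUT1, had 222, 189 and 214 CPM in the double mutant, against 105, 112 and 109 CPM in wild type (log2 0.94, SE 0.13, adjusted p = 3.67e-05). PFKFB4 and PFKFB3 make the activator of phosphofructokinase; PFKFB4 had 169, 171 and 152 CPM in the double mutant, against 75.8, 54.4 and 66.3 CPM in wild type (log2 1.33, SE 0.15, adjusted p = 6.95e-06). PFKFB3 had 61.7, 59.7 and 70.9 CPM in the double mutant, against 24.3, 33.3 and 31.1 CPM in wild type (log2 1.10, SE 0.17, adjusted p = 0.000142). The groups were well apart in all 3 genes.

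Further down the pathway PFKM, a phosphofructokinase, was at log2 0.74, and GAPDH had 10500 ± 486 CPM in the double mutant and 6596 ± 451 CPM in wild type (SD, n = 3 each, log2 0.67, SE 0.11, adjusted p = 0.000331). PGK1 (log2 1.02), ENO1 (log2 0.73) and PKM (log2 0.72), which act after GAPDH, were each higher. The hexokinases went opposite ways: HK1, the constitutive form, had 16.8, 22.7 and 23.2 CPM in the double mutant, against 72.4, 65.6 and 59.8 CPM in wild type (log2 -1.67, SE 0.20, adjusted p = 1.19e-05). HK2, the inducible form, had 62.2, 34.7 and 31.4 CPM in the double mutant, against 10.2, 27.5 and 16.1 CPM in wild type (log2 1.22, SE 0.38, adjusted p = 0.0364). The call of HK2 was lost without double mutant replicate 1 (adjusted p = 0.155) or double mutant replicate 2 (0.0533) or wild type replicate 1 (0.0859) or wild type replicate 3 (0.136) and with upper-quartile factors (adjusted p = 0.0763) and with a replicate block (0.0558). SLC16A3, a lactate exporter, was lower, with 17.3, 10.6 and 11.6 CPM in the double mutant, against 35.1, 23.1 and 42.2 CPM in wild type (log2 -1.30, SE 0.28, adjusted p = 0.00273). The hypoxia-induced gene ANKRD37 had 38.5, 34.7 and 28.5 CPM in the double mutant, against 7.92, 6.8 and 11.5 CPM in wild type (log2 1.95, SE 0.26, adjusted p = 2.89e-05). DDIT4, a hypoxia and stress-induced inhibitor of mTOR complex 1, had 387, 370.1 and 297 CPM in the double mutant, against 89.4, 88.1 and 71.3 CPM in wild type (log2 2.09, SE 0.14, adjusted p = 6.66e-09).

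**Figure D3:**
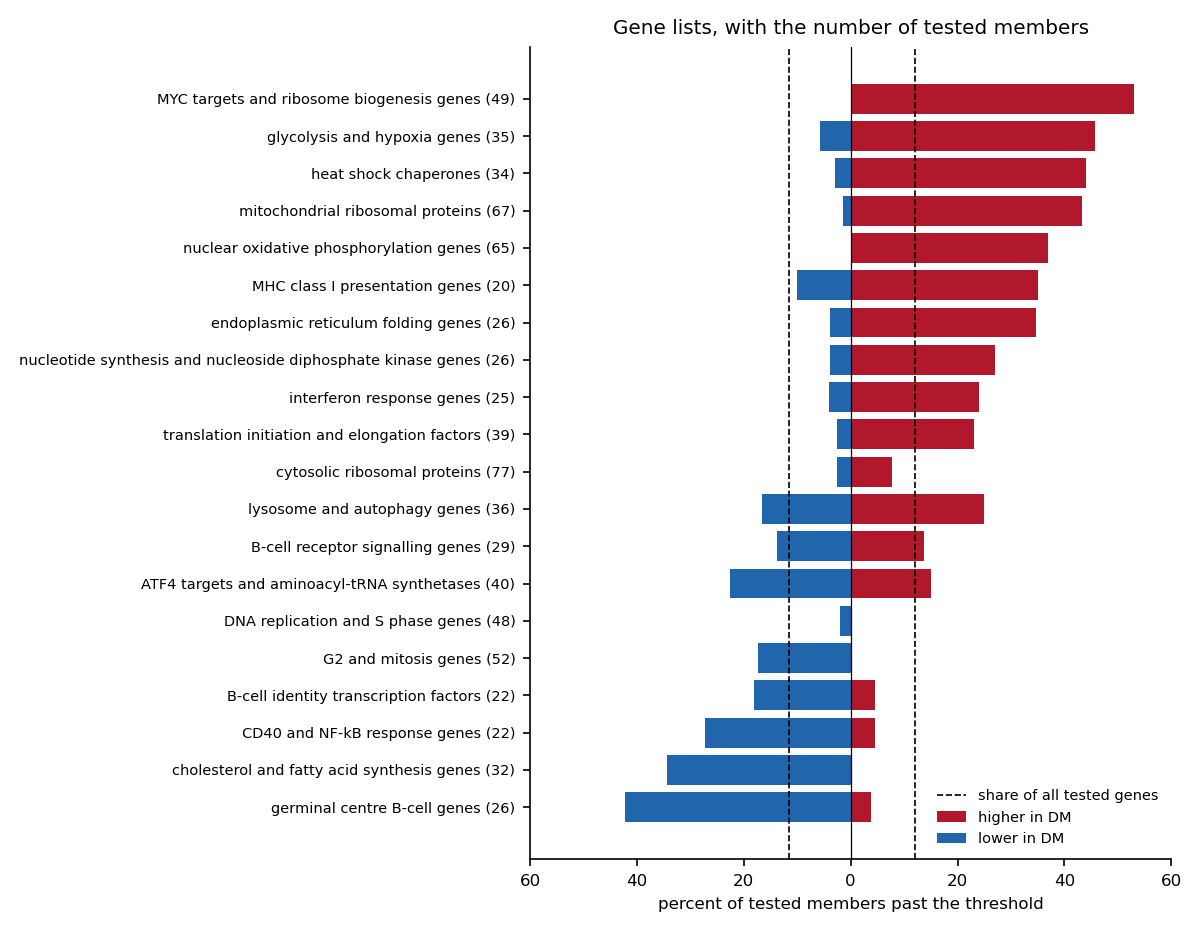
Percent of the tested members of each list that were higher (red, to the right) or lower (blue, to the left) in the double mutant than in wild type, with the number of tested members in parentheses. Dashed lines mark the share of all tested genes, 12.1% higher and 11.6% lower, and the bars run from ribosome biogenesis at the top to germinal centre genes at the bottom.

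Germinal centre genes that moved fell, with 1 exception. Of 26 tested genes of this list, 11 were lower, 1 was higher and 14 did not pass (median log2 -0.43). BCL6, the repressor that maintains the germinal centre state, had 62.7, 55.9 and 64.5 CPM in the double mutant, against 124, 102 and 129.6 CPM in wild type (log2 -0.95, SE 0.15, adjusted p = 0.000166). HMCES, which shields abasic sites in single-stranded DNA, had 314, 350.4 and 299 CPM in the double mutant, against 859, 899.7 and 748 CPM in wild type (log2 -1.38, SE 0.12, adjusted p = 2.11e-07). The lowest wild-type library was above the highest double mutant library for both of these genes.

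ASB13 had 11.3, 11.3 and 16.3 CPM in the double mutant, against 37.3, 39.1 and 40.2 CPM in wild type (log2 -1.58, SE 0.22, adjusted p = 4.85e-05). LRMP, an endoplasmic reticulum membrane protein of germinal centre B cells, had 114, 119 and 227 CPM in the double mutant, against 272, 398 and 399 CPM in wild type (log2 -1.21, SE 0.25, adjusted p = 0.00497), with double mutant replicate 3 nearer to wild type than the other two. GCSAM, a germinal centre signalling and motility protein, was lower at a low level, with 1.97, 1.51 and 1.16 CPM in the double mutant, against 4.53, 6.8 and 7.67 CPM in wild type (log2 -2.00, SE 0.50, adjusted p = 0.00745). The one rise was ITPKB, an inositol trisphosphate kinase that damps receptor signals, with 66.6, 71 and 68.6 CPM in the double mutant, against 41.3, 38.8 and 38 CPM in wild type (log2 0.81, SE 0.15, adjusted p = 0.000939). Of 22 tested B-cell transcription factors 4 were lower, 1 was higher and 17 did not pass, with the coactivator POU2AF1 at 244, 249 and 252 CPM in the double mutant, against 367, 399.9 and 318 CPM in wild type (log2 -0.54, SE 0.12, adjusted p = 0.00282). IRF4 (log2 -0.47, a call lost without wild type replicate 2 (adjusted p = 0.0667)), a factor of plasma cell fate, was also lower, and STAT6 (log2 0.51, lost without double mutant replicate 2 (adjusted p = 0.0798) or wild type replicate 3 (0.0662) and with GC and abundance trends removed (adjusted p = 0.0974)), which relays interleukin 4, was higher. Removal of GC and abundance trends gave 0 higher and 7 lower. A total of 0 of the B-cell transcription factors were higher without double mutant replicate 2 or wild type replicate 3. Leaving out double mutant replicate 1 gave 2 higher among the B-cell transcription factors. PAX5, which holds B-cell identity, was at log2 -0.24 (adjusted p = 0.284).

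Most genes listed with receptors that hold B cells in the germinal centre or guide them did not pass. Of 16 tested genes of this list 3 were lower, 0 were higher and 13 did not pass (median log2 -0.28), and 6 were lower with GC and abundance trends removed or with no filter. Over all tested genes 11.6% were lower and 12.1% higher, and with 3 calls no direction is read for the list. S1PR2, which confines B cells to the germinal centre, had 50.3, 60.4 and 40.7 CPM in the double mutant, against 112, 90.8 and 74 CPM in wild type (log2 -0.87, SE 0.17, adjusted p = 0.00131). RGS16, which quenches chemokine receptor signals, had 25.2, 39.3 and 27.9 CPM in the double mutant, against 57.7, 56.8 and 55.6 CPM in wild type (log2 -0.90, SE 0.17, adjusted p = 0.00122). CXCR5, the receptor for the follicle chemokine CXCL13, had 15.3, 15.9 and 15.7 CPM in the double mutant, against 29.4, 25.5 and 23 CPM in wild type (log2 -0.72, SE 0.20, adjusted p = 0.0137), a call lost without double mutant replicate 1 (adjusted p = 0.0549). The groups were apart in all 3.

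Most of the genes that CD40 and NF-kB raise did not pass, and those that moved were lower, with 1 exception. Of 22 tested, 6 were lower, 1 was higher and 15 did not pass (median log2 -0.28). LTB, which with LTA forms the lymphotoxin heterotrimer, had 118, 116 and 90.7 CPM in the double mutant, against 400.0, 380.1 and 395 CPM in wild type (log2 -1.85, SE 0.13, adjusted p = 1.13e-08). LTA had 4.44, 3.78 and 3.49 CPM in the double mutant, against 10.8, 15.6 and 16.9 CPM in wild type (log2 -1.88, SE 0.36, adjusted p = 0.000915). CD83, an activation marker, had 14.8, 14.3 and 16.9 CPM in the double mutant, against 28.9, 34.7 and 33.7 CPM in wild type (log2 -1.08, SE 0.2, adjusted p = 0.000659). RELB, a subunit of the noncanonical NF-kB dimer, had 105, 126 and 103 CPM in the double mutant, against 175, 167 and 164 CPM in wild type (log2 -0.60, SE 0.13, adjusted p = 0.00292). All libraries of the double mutant lay below those of wild type for these 4 genes. TNF was nearly absent, with 2 counts in the double mutant against 31 in wild type (10.7-fold lower, 95% interval 2.73 to 92.5), and TNFAIP3, the NF-kB inhibitor A20, was at log2 -0.86 (lost without double mutant replicate 1 (adjusted p = 0.108) and with the GC trend removed (adjusted p = 0.0642) and with GC and abundance trends removed (0.053)). NFKBIE, an inhibitor of NF-kB, was the one higher, at log2 0.59 (lost without double mutant replicate 1 (adjusted p = 0.101) or wild type replicate 2 (0.0757) and with GC and abundance trends removed (adjusted p = 0.117)). Removal of GC and abundance trends left 0 higher and 7 lower. Among the CD40 and NF-kB genes, 0 were higher without wild type replicate 2. With double mutant replicate 3 or wild type replicate 1 left out, 2 of the CD40 and NF-kB genes were higher.

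B-cell receptor signalling genes went both ways, at shares near those of all tested genes. Of 29 tested, 4 were higher, 4 were lower and 21 did not pass (median log2 0.018). PTPN6, the inhibitory phosphatase SHP-1, had 157, 162 and 146 CPM in the double mutant, against 107, 88.8 and 95.5 CPM in wild type (log2 0.68, SE 0.13, adjusted p = 0.000934). VAV2, a guanine nucleotide exchange factor, was at log2 0.83, and CD72, an inhibitory coreceptor, was at log2 0.84 (lost with GC and abundance trends removed (adjusted p = 0.0513)). The inhibitory coreceptor CD22 had 535, 625 and 575 CPM in the double mutant, against 888, 715 and 810.4 CPM in wild type (log2 -0.48, SE 0.13, adjusted p = 0.0136), a call lost without double mutant replicate 1 (adjusted p = 0.0627). On dropping double mutant replicate 1 or wild type replicate 1 or 3, 1 of the receptor signalling genes was lower. The receptor signalling genes held 2 lower without double mutant replicate 2 or wild type replicate 2. Of 15 plasma cell genes 3 were higher and 3 lower, or 3 and 5 with GC and abundance trends removed and 3 and 6 with upper-quartile factors. SSR4 (log2 0.89) and FKBP11 (log2 0.72), both of secretory protein handling, were higher, and DERL3 (log2 -0.76) and TXNDC11 (log2 -0.64), both of endoplasmic reticulum degradation, were lower.

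**Figure D4:**
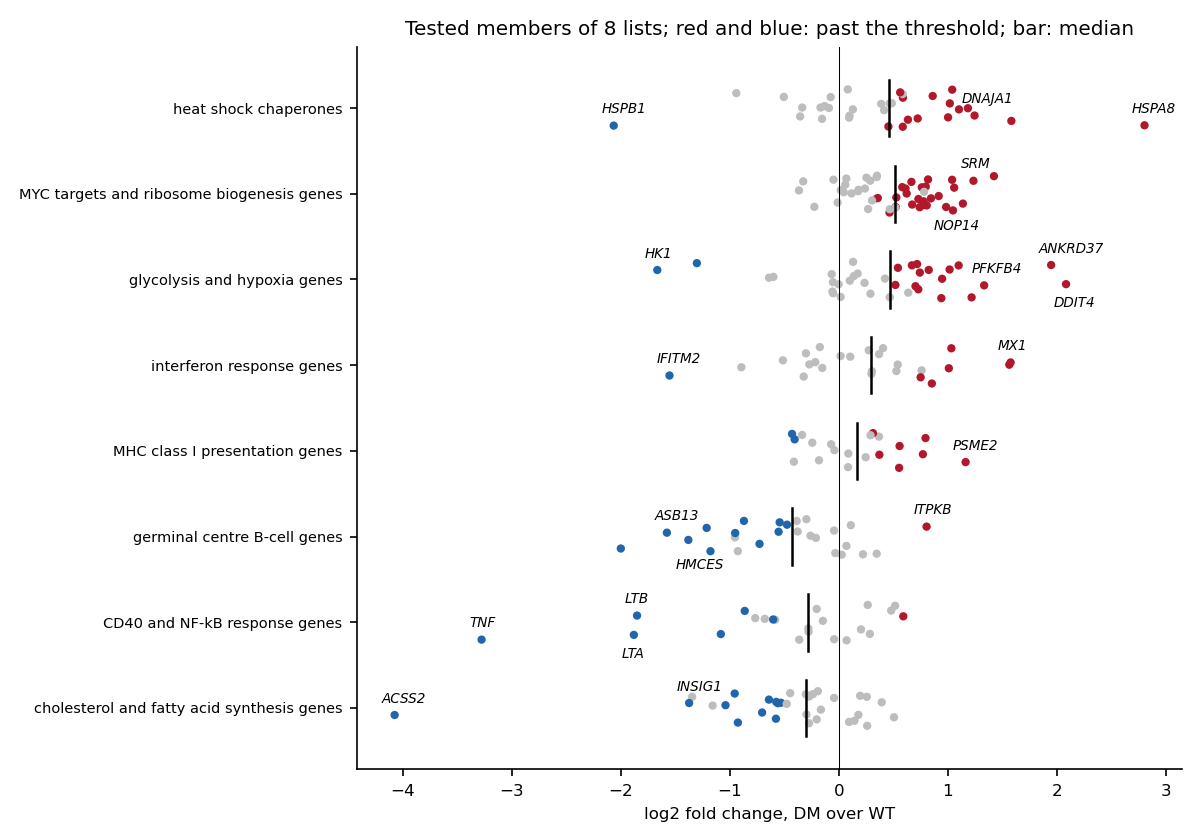
Log2 fold change, double mutant over wild type (horizontal axis), of every tested member of 8 lists, with vertical bars at the list medians, which run from -0.43 for germinal centre genes to 0.52 for ribosome biogenesis. Red and blue points passed the test at an adjusted p under 0.05, grey points did not, and vertical scatter within a list has no meaning.

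Antigen presentation showed rises in processing but falls in 2 class I heavy chains. Of 20 tested MHC class I genes 7 were higher, 2 were lower and 11 did not pass, but the balance turned with GC and abundance trends removed, to 4 higher and 5 lower. PSME2, a subunit of the proteasome activator PA28, had 313, 355 and 318 CPM in the double mutant, against 156, 148 and 137 CPM in wild type (log2 1.16, SE 0.12, adjusted p = 1.58e-06). TAP1, which carries peptides into the endoplasmic reticulum, had 233, 230.4 and 214 CPM in the double mutant, against 159, 139 and 164 CPM in wild type (log2 0.55, SE 0.12, adjusted p = 0.00238). TAPBPL, a peptide editor, was at log2 0.80. HLA-B had 389, 410.1 and 400.4 CPM in the double mutant, against 568, 531 and 516 CPM in wild type (log2 -0.43, SE 0.11, adjusted p = 0.0118). HLA-E had 453, 444 and 415 CPM in the double mutant, against 621, 540.3 and 578 CPM in wild type (log2 -0.41, SE 0.11, adjusted p = 0.0152), both uncertain because class I genes share sequence. The groups did not overlap for either heavy chain.

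Of 15 MHC class II genes 3 were higher, 1 was lower and 11 did not pass, with 2 each way once GC and abundance trends were removed. IFI30, the lysosomal thiol reductase GILT that prepares antigens, had 1043, 1143 and 1007 CPM in the double mutant, against 475, 391 and 421 CPM in wild type (log2 1.31, SE 0.13, adjusted p = 9.57e-07). HLA-DOB, a subunit of the HLA-DM inhibitor HLA-DO, had 67.6, 76.3 and 76.1 CPM in the double mutant, against 140.3, 102 and 145 CPM in wild type (log2 -0.81, SE 0.15, adjusted p = 0.000857). HLA-DQB1 was at log2 0.56. A total of 5 of the class II genes were higher without double mutant replicate 3 or wild type replicate 1. Of 25 tested interferon response genes 6 were higher, 1 was lower and 18 did not pass (median log2 0.30). MX1, an antiviral GTPase, had 107, 127 and 124 CPM in the double mutant, against 40.7, 35.4 and 43.7 CPM in wild type (log2 1.58, SE 0.15, adjusted p = 7.15e-07). BST2, the virus tether tetherin, had 366, 327 and 258 CPM in the double mutant, against 154, 162 and 155 CPM in wild type (log2 1.01, SE 0.13, adjusted p = 2.62e-05). ISG15, a ubiquitin-like modifier, had 428, 399.5 and 337 CPM in the double mutant, against 216, 176 and 178 CPM in wild type (log2 1.03, SE 0.13, adjusted p = 1.43e-05). IRF7 (log2 0.75), the factor that amplifies interferon production, was higher. IFITM2, a membrane protein that blocks viral entry and has close paralogs, was the one lower, with 31.6, 34.7 and 23.8 CPM in the double mutant, against 88.3, 82 and 93.5 CPM in wild type (log2 -1.55, SE 0.16, adjusted p = 2.08e-06).

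Surface and cytoskeletal genes held some of the largest falls, though most of those tested did not pass. Shares over all tested genes were 12.1% higher and 11.6% lower, and the adhesion genes lay near them. ITGB2, the shared beta chain of leukocyte integrins such as LFA-1, had 2.47, 3.02 and 1.16 CPM in the double mutant, against 19.8, 23.8 and 15.3 CPM in wild type (log2 -3.15, SE 0.35, adjusted p = 3.83e-06), the largest change among 18 tested adhesion genes, of which 2 were higher and 2 lower (1 and 3 with GC and abundance trends removed). CD63, a tetraspanin, was at log2 0.55 and CD99 at log2 -0.47. Leaving out double mutant replicate 2 or wild type replicate 2 gave 1 higher among the adhesion genes. IL4R, the interleukin 4 receptor chain, had 18.3, 19.6 and 24.4 CPM in the double mutant, against 82, 65.3 and 73.6 CPM in wild type (log2 -1.82, SE 0.17, adjusted p = 5.14e-07). TNFRSF13C, the BAFF receptor, was higher (log2 0.86, lost without wild type replicate 3 (adjusted p = 0.0512)), and FCMR, a receptor for IgM, was lower, with 2.96, 3.02 and 2.91 CPM in the double mutant, against 9.05, 9.86 and 12.7 CPM in wild type (log2 -1.82, SE 0.34, adjusted p = 0.000808). The 13 tested costimulatory and contact genes held 1 rise and 4 falls. Among the costimulatory genes, 0 were higher without wild type replicate 3. With double mutant replicate 1 or wild type replicate 2 or 3 left out, 2 of the costimulatory genes were lower.

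PREX1, an exchange factor that activates Rac, had 1.97, 6.04 and 4.07 CPM in the double mutant, against 65.6, 76.5 and 67.5 CPM in wild type (log2 -4.19, SE 0.26, adjusted p = 2.12e-09). RHOC, a GTPase of contraction and motility, had 7.4, 7.55 and 9.88 CPM in the double mutant, against 58.8, 41.1 and 67.5 CPM in wild type (log2 -2.74, SE 0.23, adjusted p = 1.47e-07). The double mutant libraries were all below wild type in both genes. WIPF1 (log2 -0.94), a partner of the actin regulator WASP, and MYO1G (log2 -0.78), a lymphocyte myosin, were lower, and PFN1 (log2 0.79), which feeds actin growth, RHOG (log2 0.61) and LSP1 (log2 0.74), an actin-binding leukocyte protein, were higher. Among annexins and S100 proteins 3 of 10 tested genes were lower and 0 higher, beside 11.6% lower and 12.1% higher over all tested genes. ANXA2 had 0.493, 2.27 and 1.16 CPM in the double mutant, against 34, 41.5 and 46.8 CPM in wild type (log2 -5.04, SE 0.38, adjusted p = 2.12e-08). S100Z had 10.9, 12.8 and 6.39 CPM in the double mutant, against 27.7, 35.4 and 26.1 CPM in wild type (log2 -1.59, SE 0.25, adjusted p = 0.000152). S100A10, the S100 partner of annexin A2, had 0 counts in the double mutant against 10 in wild type (at least 2.31-fold lower), a call lost without double mutant replicate 1 (adjusted p = 0.0743) or double mutant replicate 2 (0.0505) or double mutant replicate 3 (0.0513) or wild type replicate 3 (0.0658) and with only the libraries compared (adjusted p = 0.0608). ANXA2 has processed pseudogenes, so its counts are uncertain.

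MT2A, which binds zinc and other metals and has close paralogs, had 23.7, 15.1 and 16.9 CPM in the double mutant, against 136, 146 and 111 CPM in wild type (log2 -2.79, SE 0.20, adjusted p = 1.02e-08). APOBEC3C, a cytidine deaminase with close paralogs, had 4.44, 6.8 and 2.33 CPM in the double mutant, against 60.5, 67 and 61.3 CPM in wild type (log2 -3.84, SE 0.24, adjusted p = 2.46e-09), while APOBEC3G, another member, was at log2 0.19 (adjusted p = 0.395). GADD45A, a stress-induced growth arrest gene, had 38.5, 52.1 and 44.8 CPM in the double mutant, against 113, 126 and 138 CPM in wild type (log2 -1.49, SE 0.15, adjusted p = 1.51e-06), whereas its relative GADD45B was higher, with 58.7, 55.9 and 49.4 CPM in the double mutant, against 30.6, 30.3 and 31.1 CPM in wild type (log2 0.84, SE 0.16, adjusted p = 0.00129). The groups were apart in MT2A, APOBEC3C and both GADD45 genes.

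Most genes of the lists of G2 and mitosis and of replication and S phase did not pass, and those that did were lower. Over all tested genes 11.6% were lower and 12.1% higher. Of 52 tested G2 and mitosis genes 9 were lower, 0 were higher and 43 did not pass (median log2 -0.29), while 23 were lower with GC and abundance trends removed and 14 with upper-quartile factors. CDK1, the mitotic kinase, had 59.2, 54.4 and 90.1 CPM in the double mutant, against 108, 122 and 189 CPM in wild type (log2 -1.04, SE 0.21, adjusted p = 0.00225), with the groups apart but replicate 3 high in each line. NUSAP1 (log2 -0.69), a spindle protein, and NCAPD2 (log2 -0.52), a condensin subunit, were lower. On dropping wild type replicate 3, 4 of the mitosis genes were lower. The mitosis genes held 5 lower without double mutant replicate 1. Of 48 replication and S phase genes 1 was lower, RRM2 (log2 -0.65), a ribonucleotide reductase subunit, a call lost without wild type replicate 2 (adjusted p = 0.0612) and with the GC trend removed (adjusted p = 0.0611), and 0 were higher. The number lower was 11 and the number higher 1 with GC and abundance trends removed, 2 and 2 with the GC trend alone removed, and 4 and 0 with no filter or upper-quartile factors. RLE factors gave 2 lower and the strict filter 3. A total of 1 of the S phase genes was higher without double mutant replicate 1. Leaving out wild type replicate 2 gave 2 lower among the S phase genes.

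Inhibitors of cyclin-dependent kinases split: CDKN1A was higher as given above, while CDKN2C, the inhibitor p18, had 104, 109.5 and 103 CPM in the double mutant, against 207, 171 and 185 CPM in wild type (log2 -0.83, SE 0.12, adjusted p = 0.000115) and CDKN3, a phosphatase of these kinases, had 129, 132 and 114 CPM in the double mutant, against 195, 176 and 237 CPM in wild type (log2 -0.69, SE 0.14, adjusted p = 0.00195). Of 6 tested genes 1 was higher and 3 were lower (5 with GC and abundance trends removed or with no filter), CDKN1B among them (log2 -0.54, lost without double mutant replicate 2 (adjusted p = 0.101) or double mutant replicate 3 (0.0718) or wild type replicate 2 (0.0555) or wild type replicate 3 (0.12) and in DESeq2 (adjusted p = 0.069) and with the GC trend removed (0.268)). Of 17 tested BCL2 family genes 2 were higher and 2 lower, or 1 and 5 with upper-quartile factors. BBC3, the death activator PUMA, had 22.2, 23.4 and 16.3 CPM in the double mutant, against 40.7, 39.1 and 55.2 CPM in wild type (log2 -1.13, SE 0.23, adjusted p = 0.00168), and BAK1, a pore former, was at log2 0.64 (lost without double mutant replicate 1 (adjusted p = 0.059)). Among the BCL2 family genes, 1 was higher without double mutant replicate 2 or 3 or wild type replicate 1, 2 or 3. With double mutant replicate 1, 2 or 3 or wild type replicate 2 or 3 left out, 1 of the BCL2 family genes was lower. Of 14 tested histone genes 4 were lower and 0 higher, or 5 and 1 with GC and abundance trends removed. H1-10, a linker histone gene, had 416, 493 and 395 CPM in the double mutant, against 968, 779 and 781 CPM in wild type (log2 -0.95, SE 0.13, adjusted p = 4.85e-05). H4C3 had 5468 ± 1420 CPM in the double mutant and 8880 ± 870.0 CPM in wild type (SD, n = 3 each, log2 -0.70, SE 0.18, adjusted p = 0.0113). On dropping double mutant replicate 1, 2 of the histone genes were lower.

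Sterol and fatty acid synthesis genes that moved fell. The factor SREBF2 raises these genes when sterols are low, and INSIG1 holds it back. Of 32 tested, 11 were lower, 0 were higher and 21 did not pass (median log2 -0.30), and 18 were lower and 0 higher with GC and abundance trends removed. SREBF2 itself had 299.5, 370.1 and 299 CPM in the double mutant, against 538, 520.2 and 518 CPM in wild type (log2 -0.70, SE 0.12, adjusted p = 0.000556). INSIG1 had 24.2, 21.9 and 27.3 CPM in the double mutant, against 44.7, 64.3 and 80.5 CPM in wild type (log2 -1.37, SE 0.22, adjusted p = 0.000223). FDFT1, squalene synthase, had 192, 207 and 299 CPM in the double mutant, against 423, 492 and 519 CPM in wild type (log2 -1.04, SE 0.16, adjusted p = 0.000246). All double mutant libraries lay below all wild-type libraries in the 3 genes.

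ACAT2, which opens the sterol pathway, had 82.4, 71 and 71.5 CPM in the double mutant, against 139, 141 and 149 CPM in wild type (log2 -0.93, SE 0.13, adjusted p = 5.41e-05), and MSMO1 (log2 -0.64) and IDI1 (log2 -0.57), later enzymes, were lower too. ACSS2, which makes acetyl-CoA from acetate, had 0.493, 2.27 and 1.74 CPM in the double mutant, against 25.5, 19.7 and 28.4 CPM in wild type (log2 -4.08, SE 0.43, adjusted p = 2.08e-06). ELOVL5, which lengthens polyunsaturated fatty acids, had 31.1, 34.7 and 29.1 CPM in the double mutant, against 52, 60.2 and 70.2 CPM in wild type (log2 -0.96, SE 0.17, adjusted p = 0.00051). FADS3 of the desaturase family, outside the list, had 165, 188 and 171 CPM in the double mutant, against 425, 352 and 366 CPM in wild type (log2 -1.12, SE 0.13, adjusted p = 6.95e-06). The sterol element TCACNCCAC (reverse complement GTGGNGTGA) was in 1 of 32 matched promoters of the list (3.12%), that of SREBF2, and in 1.13% of all promoters.

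Folding genes of the endoplasmic reticulum were higher in 9 of 26 cases, lower in 1 and short of the threshold in 16 (median log2 0.28). CALR, a lectin chaperone, had 1561 ± 168 CPM in the double mutant and 914 ± 42.2 CPM in wild type (SD, n = 3 each, log2 0.77, SE 0.13, adjusted p = 0.000539), P4HB, a protein disulfide isomerase, was at log2 0.64 and PDIA4 at log2 0.59. EDEM1, which sends misfolded glycoproteins to degradation, was lower, with 156, 144 and 113 CPM in the double mutant, against 302, 360.4 and 274 CPM in wild type (log2 -1.18, SE 0.15, adjusted p = 2.87e-05). The folding genes held 5 higher without double mutant replicate 1 or 2 or wild type replicate 3. A total of 2 of the folding genes were lower without double mutant replicate 3. Removal of GC and abundance trends, or upper-quartile factors, gave 5 higher and 2 lower. HSPA5, the master chaperone of the compartment, was at log2 0.24 (adjusted p = 0.605).

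Amino acid response genes and transfer RNA synthetases went both ways. Of 40 tested, 6 were higher, 9 were lower and 25 did not pass, but 2 were higher and 19 lower with GC and abundance trends removed and 3 higher and 15 lower with upper-quartile factors. VARS1, the valine synthetase, had 252, 248 and 249 CPM in the double mutant, against 126, 106 and 114 CPM in wild type (log2 1.12, SE 0.13, adjusted p = 9.53e-06). CHAC1, which breaks down glutathione, had 77, 109 and 80.2 CPM in the double mutant, against 175, 131 and 155 CPM in wild type (log2 -0.80, SE 0.16, adjusted p = 0.00185). CEBPB (log2 -0.54), a partner of ATF4, was lower. Leaving out wild type replicate 3 gave 4 lower among the amino acid response and synthetase genes. Among the amino acid response and synthetase genes, 5 were lower without double mutant replicate 1 or 3. Of 36 lysosome and autophagy genes 9 were higher, 6 were lower and 21 did not pass: ATP6V0D1, of the proton pump, had 103, 86.9 and 94.7 CPM in the double mutant, against 43, 48.6 and 44.1 CPM in wild type (log2 1.07, SE 0.15, adjusted p = 6.19e-05). TFEB, the factor that raises lysosomal genes, had 122, 103 and 98.8 CPM in the double mutant, against 60.5, 60.5 and 77.4 CPM in wild type (log2 0.71, SE 0.15, adjusted p = 0.00279). The proteases CTSD (log2 0.80) and CTSA (log2 0.85) were higher, whereas the protease CTSH had 13.8, 11.3 and 12.8 CPM in the double mutant, against 31.1, 37.4 and 29.1 CPM in wild type (log2 -1.35, SE 0.21, adjusted p = 0.000164), and WIPI1 (log2 -0.85), of autophagosome formation, was lower.

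In the list of TCL1, AKT and mTOR regulators 5 of 26 tested genes were higher, 6 were lower and 15 did not pass, and with GC and abundance trends removed 3 were higher and 8 lower. TCL1B, which binds and activates AKT, had 219, 224 and 189.5 CPM in the double mutant, against 48.7, 39.4 and 42.5 CPM in wild type (log2 2.28, SE 0.14, adjusted p = 2.12e-09). Its neighbour TCL1A had 2760 ± 150.0 CPM in the double mutant and 2738 ± 180.0 CPM in wild type (SD, n = 3 each, log2 0.01, SE 0.11, adjusted p = 0.956). RPTOR, the scaffold of mTOR complex 1, had 91.3, 115 and 95.9 CPM in the double mutant, against 61.1, 60.5 and 48.7 CPM in wild type (log2 0.82, SE 0.15, adjusted p = 0.000915). DEPTOR, an inhibitor of mTOR, had 31.6, 31 and 28.5 CPM in the double mutant, against 57.7, 47.6 and 55.6 CPM in wild type (log2 -0.81, SE 0.16, adjusted p = 0.00135). TRIB2, a pseudokinase, was at log2 -1.15. With double mutant replicate 1 or 2 or wild type replicate 2 or 3 left out, 3 of the genes of this list were higher. On dropping double mutant replicate 3, 3 of the genes of this list were lower.

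Genes of the 2 Polycomb complexes passed at shares near the 23.7% over all tested genes. Of 12 tested PRC2 genes 1 was higher, 2 were lower and 9 did not pass, and 0 were higher with RLE or upper-quartile factors, with no filter, and with the GC trend or both trends removed: EZH1, the paralog of EZH2, had 46.9, 55.1 and 47.7 CPM in the double mutant, against 79.8, 83 and 64 CPM in wild type (log2 -0.60, SE 0.15, adjusted p = 0.00785). RBBP4, a histone-binding subunit, had 34.5, 32.5 and 35.5 CPM in the double mutant, against 49.2, 53.7 and 55.6 CPM in wild type (log2 -0.63, SE 0.15, adjusted p = 0.00746). The PRC2 genes held 0 higher without double mutant replicate 1 or 2 or wild type replicate 1, 2 or 3. A total of 2 of the PRC2 genes were higher without double mutant replicate 3. Of 20 tested PRC1 genes 2 were higher and 3 lower, and 6 were lower with GC and abundance trends removed: CBX8, a reader of methylated lysine 27, had 14.8, 12.1 and 13.9 CPM in the double mutant, against 4.53, 5.1 and 2.68 CPM in wild type (log2 1.73, SE 0.34, adjusted p = 0.00123). PCGF5, of a variant complex, had 35.5, 39.3 and 50.6 CPM in the double mutant, against 96.8, 103 and 111 CPM in wild type (log2 -1.31, SE 0.19, adjusted p = 6.67e-05). Leaving out double mutant replicate 1 or 2 or wild type replicate 2 or 3 gave 1 higher among the PRC1 genes. Among the PRC1 genes, 1 was lower without double mutant replicate 1 or 2 or wild type replicate 2. Of 18 KMT2 family and COMPASS genes 3 were higher, 0 were lower and 15 did not pass, and with GC and abundance trends removed 1 was higher and 1 lower. Among the rises was RBBP5 (log2 0.92), a core subunit, a call lost without double mutant replicate 1 (adjusted p = 0.0732) or wild type replicate 3 (0.0537). With double mutant replicate 1 or wild type replicate 3 left out, 0 of the COMPASS genes were higher. On dropping wild type replicate 2, 1 of the COMPASS genes was higher.

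Genes reported as targets of the mutated enzymes went both ways. Of 16 tested reported KMT2D targets 1 was higher, 4 were lower and 11 did not pass, beside 12.1% higher and 11.6% lower over all tested genes, and 6 were lower with GC and abundance trends removed. Of 17 reported PRC2 targets 2 were higher, 3 were lower and 12 did not pass; 6 were lower with GC and abundance trends removed and 5 with upper-quartile factors. JUNB, an AP-1 subunit reported with KMT2D, had 22.2, 26.4 and 22.1 CPM in the double mutant, against 39, 38.8 and 38 CPM in wild type (log2 -0.72, SE 0.18, adjusted p = 0.0068). BMP7, a growth factor reported with PRC2, had 1.97, 2.27 and 4.07 CPM in the double mutant, against 23.8, 14.6 and 22.6 CPM in wild type (log2 -2.83, SE 0.50, adjusted p = 0.00074). The reported KMT2D targets held 2 lower without double mutant replicate 1. A total of 1 of the reported PRC2 targets was lower without wild type replicate 2.

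Set against the single mutants, the double mutant had fewer called genes against the EZH2 mutant than against the KMT2D mutant. Between the double mutant and the EZH2 mutant 202 genes passed (2.29%), 63 higher (0.715%) and 139 lower (1.58%), while between the double mutant and the KMT2D mutant 3695 passed (41.9%), 1864 higher (21.2%) and 1831 lower (20.8%). The first comparison has 2 libraries on one side, and the double mutant libraries are shared by both. The number called against the EZH2 mutant was 131 without double mutant replicate 2, 99 without double mutant replicate 3 and 101 without EZH2 mutant replicate 1. It was 330 with the GC trend removed, 175 higher and 155 lower, and 341 with GC and abundance trends removed, 198 higher and 143 lower. Against the KMT2D mutant, GC and abundance removal gave 1111 higher and 2012 lower, and upper-quartile factors gave 1342 higher and 2300 lower.

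Some of the strongest changes from wild type were also differences from each single mutant. PREX1 had 1.97, 6.04 and 4.07 CPM in the double mutant, 49.2 and 41.7 in the EZH2 mutant, 63, 50.4 and 65.9 in the KMT2D mutant and 65.6, 76.5 and 67.5 in wild type, so that the double mutant differed from the EZH2 mutant (log2 -3.55, adjusted p = 8.12e-07) and from the KMT2D mutant (log2 -3.98, adjusted p = 1.92e-09). IFITM2 had 31.6, 34.7 and 23.8 CPM in the double mutant, 138 and 112 in the EZH2 mutant, 151, 174 and 153 in the KMT2D mutant and 88.3, 82 and 93.5 in wild type. It was below the EZH2 mutant (log2 -2.05, adjusted p = 8.23e-07) and the KMT2D mutant (log2 -2.41, adjusted p = 2.04e-09), and both single mutants had means above wild type. HK1 had 16.8, 22.7 and 23.2 CPM in the double mutant, 95.2 and 63.5 in the EZH2 mutant, 46.9, 65.1 and 62.4 in the KMT2D mutant and 72.4, 65.6 and 59.8 in wild type, and the double mutant stood below the EZH2 mutant (log2 -1.91, adjusted p = 4.45e-05) and the KMT2D mutant (log2 -1.48, adjusted p = 2.22e-05).

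NME4, a mitochondrial nucleoside diphosphate kinase, had 128, 143 and 139 CPM in the double mutant, 17.4 and 11.9 in the EZH2 mutant, 38.7, 49 and 36.4 in the KMT2D mutant and 44.1, 30.9 and 37.2 in wild type. Here the EZH2 mutant lay below wild type and the double mutant above all the others (log2 3.28 against the EZH2 mutant, log2 1.74 against the KMT2D mutant). APOBEC3C (log2 -2.68 and log2 -4.34 in the same order), MT2A (log2 -2.29 and log2 -3.93) and RHOC (log2 -2.06 and log2 -3.60) were lower than in either single mutant. The same was seen for HSPB1 (log2 -1.03 and log2 -2.20) and LTB (log2 -0.90 and log2 -1.76). MX1 was higher than in either, at log2 0.74 against the EZH2 mutant and log2 2.10 against the KMT2D mutant, but the first of these calls was lost without double mutant replicate 2 (adjusted p = 0.0824) or double mutant replicate 3 (0.0919) or EZH2 mutant replicate 1 (0.102) or EZH2 mutant replicate 2 (0.131) and with only the libraries compared (adjusted p = 0.0501) and with a replicate block (0.0602).

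LRP5 had 17.3, 13.6 and 11.6 CPM in the double mutant, 0 and 0 in the EZH2 mutant, 1.52, 4.03 and 2.68 in the KMT2D mutant and 0, 0 and 0.767 in wild type, above the EZH2 mutant (adjusted p = 0.000579) and the KMT2D mutant (log2 2.49, adjusted p = 0.000255), with the EZH2 mutant at 0. IGLL5 had 63.7, 99.7 and 56.4 CPM in the double mutant, 59.4 and 44.2 in the EZH2 mutant, 1621, 1687 and 1695 in the KMT2D mutant and 898, 726 and 752 in wild type, and did not differ past the threshold from the EZH2 mutant (log2 0.51, adjusted p = 0.257) but did from the KMT2D mutant (log2 -4.53, adjusted p = 5.93e-12). Its difference from the EZH2 mutant passed with the GC trend removed (adjusted p = 0.0273) and with GC and abundance trends removed (0.0149). HVCN1 had 3.45, 1.51 and 1.74 CPM in the double mutant, 2.05 and 3.48 in the EZH2 mutant, 53.6, 57.7 and 60.5 in the KMT2D mutant and 23.8, 26.9 and 28.4 in wild type, with the double mutant at log2 -0.34 against the EZH2 mutant, which did not pass.

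**Figure D5:**
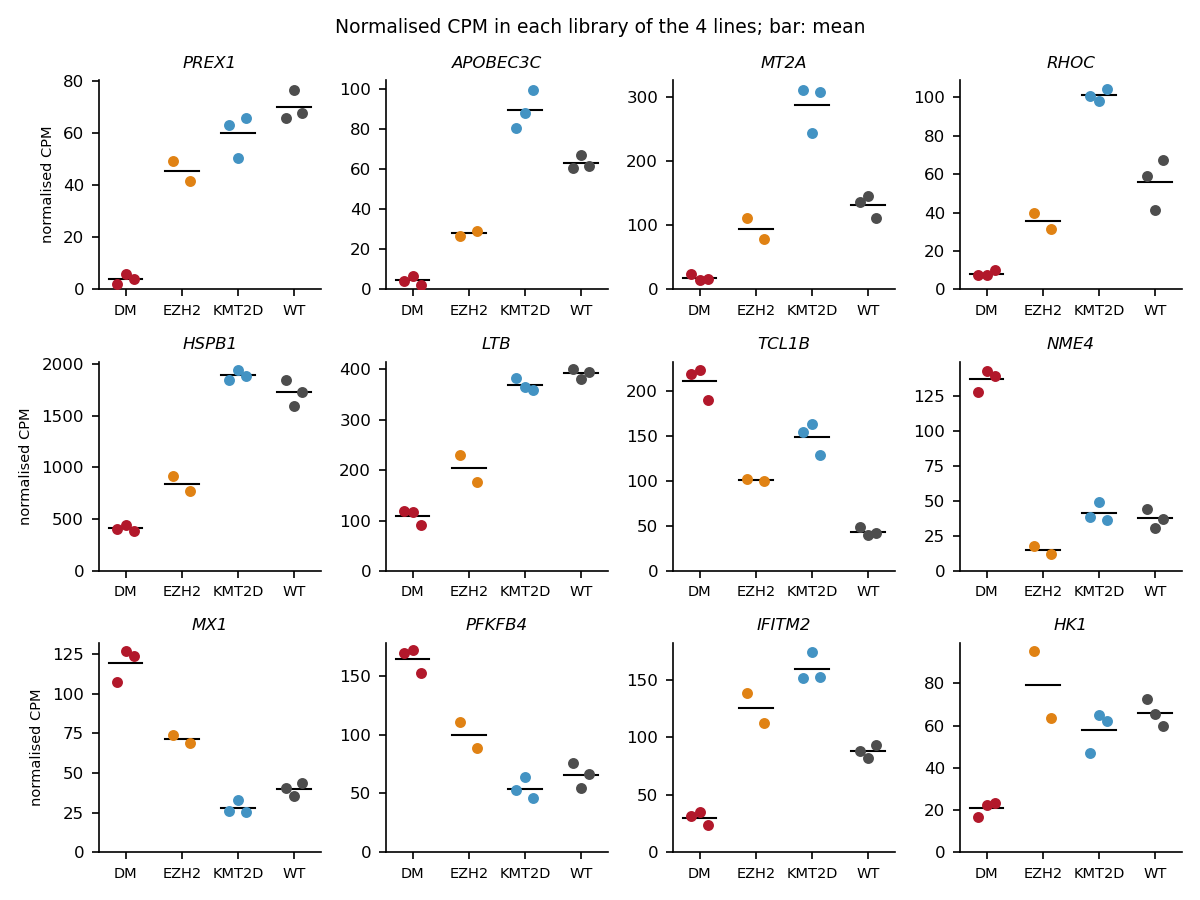
Normalised CPM (vertical axes, from 0) in each library of the double mutant (DM), the EZH2 mutant, the KMT2D mutant and wild type (WT) for 12 genes, with bars at the means. The double mutant is the lowest line for PREX1, APOBEC3C, MT2A, RHOC, HSPB1, LTB, IFITM2 and HK1 and the highest for TCL1B, NME4, MX1 and PFKFB4.

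No chromosome arm stood far apart in the double mutant. Over arms with at least 30 tested genes the median log2 fold change against wild type ran between -0.29 on 18p and 0.17 on 19p. The long arm of chromosome 19 had a median of 0.13 against wild type, with 55 of 376 genes higher and 33 lower. Against the KMT2D mutant its median was 0.81, with 224 of the 376 genes higher and 26 lower. With that arm left out, 1640 genes were higher and 1805 lower in the double mutant than in the KMT2D mutant.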

How the data were processed

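Per the labels, RNA of untreated cells was made into barcoded cDNA libraries. The deposited table holds counts per gene, called corrected without saying for what. The submitters' processing notes name Trim Galore 0.6.0, cutadapt 1.15, FastQC, STAR 2.7.0f and DESeq2; the counting program, genome build and strand are not given in the sources used here. Columns marked DM were read as the double mutant, and EZH2 mutant replicate 3 had no column.

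Counts were tested with edgeR 4.0.16 in R 4.3.3: filterByExpr with a minimum count of 10, TMM factors, and a robust quasi-likelihood fit over all 11 libraries with 1 term per line. P-values were adjusted by Benjamini-Hochberg over 8813 genes, with 0.05 as the threshold. Values printed as CPM are TMM-scaled unless called CPM of the library total. For groups at 3 or fewer counts, folds are of summed counts with a 95% interval, or a floor with 3 counts over the group in place of 0. A total of 3 counts was 1.39, 2.11 and 1.76 CPM in the double mutant libraries and 1.72, 1.07 and 1.22 CPM in the wild-type libraries. The fit was tested on simulated data.

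The comparison and the 46 gene lists were chosen with earlier results of these data known. Named were EZH2 and KMT2D, the 15 largest called changes each way with at least 10 CPM and no overlap of groups, the 10 called genes of highest mean each way with at least 2-fold change, and up to 5 members per list of smallest adjusted p. Other genes were named after their values were seen. Some genes and 1 list are not reported here. Lists were described by counts and medians, with no list test. Promoters came from RefSeq; GC content of the last 500 bases and chromosome arms came from GENCODE annotation of GRCh38.

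Alternatives were DESeq2 1.42.0, limma-voom (limma 3.58.1), a filter with a minimum count of 30 (6668 genes) or none at all (15090 genes), upper-quartile or RLE scaling, a fit on the compared libraries alone, replicate numbers as a block, and each library left out in turn. Added after seeing the data were removal of a GC trend, of GC and abundance trends (splines of 5 degrees of freedom), and of the long arm of chromosome 19. Tables and figures used Python 3.11.15, pandas 2.3.3, numpy 2.4.6, scipy 1.17.1 and matplotlib 3.10.9.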

Additional observations from a re-analysis of the deposited data

How the results depend on the processing

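The number of genes called between double mutant and wild type was 2087 and lay between 1595 with DESeq2 and 2259 with no filter on low counts. Leaving out 1 library gave between 1374 and 2062. A replicate block gave 1032 higher and 970 lower. Same-numbered libraries of the 2 lines deviated from their group means with correlations of 0.0114, -0.0472 and 0.233. Differently numbered libraries gave correlations between -0.248 and 0.238. With 3 libraries a line, such values cannot tell whether the numbers pair the libraries. Of 303 named genes called against wild type, 91 lost their call in at least 1 of 16 alternatives. The other 212 lost it in none, and 0 reversed. Leaving out the long arm of chromosome 19 was not among the 16. An alternative that gave a gene no adjusted p, as when a filter dropped it, was not counted as a loss.

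Against the EZH2 mutant 202 genes were called. This count was 381 with no filter (154 higher, 227 lower), 102 with only the libraries compared (36 higher, 66 lower), 330 with the GC trend removed and 341 with GC and abundance trends removed. It was 204 with upper-quartile factors, 88 higher and 116 lower, and 151 with a replicate block. Leaving out 1 library gave between 99 and 242; without double mutant replicate 1 the split was 125 higher and 117 lower. Against the KMT2D mutant 3695 were called, between 2822 and 3448 with 1 library left out. The cause of these moves was not tested. Of 92 list counts, 42 moved by over 1.5 times with GC and abundance trends removed and 20 with upper-quartile factors. Depth limits the low genes: the shallowest double mutant library had 1418465 counts, and with totals of this size a gene near 3 CPM rests on a handful of reads per library.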

Other observations

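The gene groups below were picked after their values were seen, so their counts are descriptions. Over all tested genes 12.1% were higher and 11.6% lower. Among the X-linked BEX and TCEAL genes, small adapter-like proteins, 4 of 5 tested members were lower in the double mutant than in wild type and 0 higher, in the main test and with each library left out. BEX2 had 3.95, 5.29 and 0 CPM in the double mutant, against 25.5, 22.1 and 24.1 CPM in wild type (log2 -2.98, SE 0.42, adjusted p = 4.89e-05), and TCEAL1 had 8.88, 3.78 and 7.55 CPM in the double mutant, against 24.3, 19.4 and 22.2 CPM in wild type (log2 -1.63, SE 0.30, adjusted p = 0.00076). The metallothionein MT1X, which shares sequence with its neighbours, had 5.92, 0.755 and 1.74 CPM in the double mutant, against 10.2, 18 and 4.6 CPM in wild type (log2 -1.82, SE 0.58, adjusted p = 0.0339), a call lost without double mutant replicate 2 (adjusted p = 0.106) or double mutant replicate 3 (0.109) or wild type replicate 1 (0.0539) or wild type replicate 2 (0.179) and in limma-voom (adjusted p = 0.068), with only the libraries compared (0.0559) and with a replicate block (0.0557). RGS10, which ends G-protein signals, had 11.3, 18.1 and 8.72 CPM in the double mutant, against 73, 73.4 and 75.5 CPM in wild type (log2 -2.58, SE 0.21, adjusted p = 6.88e-08), and LSR, a lipoprotein receptor, had 4.93, 7.55 and 4.07 CPM in the double mutant, against 59.4, 35.4 and 43.7 CPM in wild type (log2 -3.07, SE 0.28, adjusted p = 2.72e-07). The double mutant libraries lay below wild type for BEX2, TCEAL1, RGS10 and LSR.

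Of 35 tested genes of the proteasome families PSMA to PSMD, which degrade ubiquitinated proteins, 17 were higher and 0 lower (median log2 0.48), and 8 were higher with GC and abundance trends removed. PSMC3, an ATPase of the proteasome cap, had 362, 374 and 296 CPM in the double mutant, against 171, 172 and 185 CPM in wild type (log2 0.97, SE 0.13, adjusted p = 4.85e-05). The number higher with 1 library left out was between 11 and 17. Of 21 tested mitochondrial import genes TIMM and TOMM 7 were higher and 0 lower, with 3 higher and 3 lower once both trends were removed. TOMM40, the import pore, had 397, 331 and 296 CPM in the double mutant, against 145, 118 and 188 CPM in wild type (log2 1.18, SE 0.21, adjusted p = 0.00132).

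Of 27 tested RNA polymerase genes 8 were higher and 0 lower, with POLR2L at log2 0.89. Host genes of small nucleolar RNAs gave 6 higher and 2 lower of 23: DANCR had 532, 519 and 505 CPM in the double mutant, against 267, 210.5 and 229 CPM in wild type (log2 1.14, SE 0.12, adjusted p = 1.58e-06), and SNHG7 was at log2 1.03. Long intergenic and antisense genes went the other way, with 56 of 239 tested genes lower and 8 higher (median log2 -0.43), and between 33 and 55 lower with 1 library left out. With GC and abundance trends removed 47 were lower and 8 higher. The third of all tested genes with the lowest expression also leaned downward, with 431 of 2938 lower and 74 higher (median log2 -0.34). The part of expression level in the falls of these RNAs was not tested. The tested genes of the ZNF family changed in few cases, 7 higher and 10 lower of 216. Libraries were counted without a stated strand, so antisense counts are uncertain.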
